A study of Homo sapiens with 48 samples.

Results

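The 36 genes described here encode aminoacyl-tRNA synthetases, 20 of the cytosol and 16 of the mitochondrion, and were chosen by gene symbol from the 27978 symbols of the deposited count table. Of these, 35 passed the filter on low counts and were tested together with all 15789 genes that passed. The exception was VARS, the cytosolic valine enzyme, with 0 or 1 count in every library. Older symbols without the suffix 1 are used as the table gives them (AARS for AARS1).

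RNA was sequenced from H1975, a human EGFR-mutant non-small cell lung cancer line, in 16 groups of 3 libraries that the submitters call biological replicates. The groups were untreated cells at 0 h and at 24 h, and cells treated for 24 h with gefitinib (50 or 75 µM), CKI (compound kushen injection, a plant extract, 1 or 2 mg/mL), YFSJ (2.5 or 5 mg/mL), each CKI dose with each gefitinib dose, and each YFSJ dose with each gefitinib dose. Gefitinib is an inhibitor of the EGFR kinase, and the series asks whether CKI and YFSJ alter the response of gefitinib-resistant cells. All comparisons of treated with untreated cells below use the same 3 untreated libraries at 24 h and so are not independent of each other.

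Each synthetase joins an amino acid to its tRNA, the step that fixes the genetic code. Cytosolic enzymes supply translation of nuclear messages, and a group of them is held in the multisynthetase complex with the scaffold proteins AIMP1, AIMP2 and EEF1E1. Mitochondrial enzymes, all encoded in the nucleus and mostly marked by the suffix 2, supply translation of the few proteins encoded by mitochondrial DNA. Several cytosolic synthetase genes are known targets of ATF4, a transcription factor of the response to amino acid shortage and endoplasmic reticulum stress.

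The libraries held 16428398 to 26264162 counts, so that 3 counts, the level below which a gene is not distinguishable from 0, corresponded to 0.114 to 0.183 CPM, the count scaled to library size. Lung adenocarcinoma markers were present at unequal median levels: KRT7 1445, EGFR 96.5, NKX2-1 44.7, SFTA3 6.53 and NAPSA 1.93 CPM. Luminal breast markers had medians near or at 0 (GATA3 0.681, ESR1 0.125 CPM), and PGR was 0 in all libraries. This bears on the label, since the supplier number in the growth protocol is that of a breast line. Of the fibroblast markers, COL1A1 and COL1A2 had medians of 386 and 76.9 CPM, and LUM, PDGFRA and DCN of 0.102, 0 and 0 CPM. ALB, a liver gene, exceeded 1000 counts in 10 libraries: all 3 of YFSJ 2.5 mg/mL, all 3 of CKI 2 mg/mL with gefitinib 75 µM, and 2 each of CKI 2 mg/mL with gefitinib 50 µM and CKI 1 mg/mL with gefitinib 75 µM. The summed level of 8 liver markers was 224 to 308 CPM in those libraries and 43.9 to 96.3 CPM in the other 38. In the other 38 nearly all of this sum was SERPINA1, at 43.7 to 96.2 CPM. No other liver marker exceeded 0.387 CPM there, whereas ALB was at least 119 CPM in the 10 libraries. Results for added CKI and for the interactions are given below also without the 10 libraries with ALB counts. The mitochondrial ribosomal RNA RNR2 took 0.464 to 0.582% of counts in untreated cells at 24 h and 1.39 to 1.56% with CKI 2 mg/mL plus gefitinib 75 µM. Libraries 1 and 2 at 0 h and library 2 of YFSJ 2.5 mg/mL with gefitinib 75 µM stood apart from their replicates, with RNR2 shares of 1.22, 1.69 and 2.18%. In bulk samples, fewer cells of a kind and less RNA per cell cannot be told apart.

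Per kilobase of the longest coding transcript, the most abundant synthetase messages in untreated cells at 24 h were cytosolic. FARSA, the catalytic subunit of the phenylalanine enzyme, stood at 224 ± 29.5 CPM per kb (SD, n = 3). KARS, the lysine enzyme that serves both compartments, stood at 176 ± 4.44 CPM per kb. GARS, the glycine enzyme of both compartments, and AARS, the alanine enzyme, followed at 101.1 ± 4.92 and 98.6 ± 5.25 CPM per kb, a difference within their spread. WARS (tryptophan) and SARS (serine) were equal within their spread, at 80.0 ± 3.69 and 80.0 ± 3.70 CPM per kb. FARSB, the partner subunit of FARSA, was much lower at 28.6 ± 0.927 CPM per kb, although the enzyme holds equal numbers of each subunit. The highest mitochondrial gene was IARS2 (isoleucine) at 64.0 ± 7.08 CPM per kb, followed by CARS2 (cysteine) at 46.0 ± 2.96 and TARS2 (threonine) at 37.4 ± 1.26. The lowest were PARS2 (proline) at 2.14 ± 0.426 and VARS2 (valine) at 1.59 ± 0.239 CPM per kb. These lengths are annotation lengths, and the transcripts used by these cells were not measured.

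VARS and VARS2 lie on chromosome 6, and most counts around them were low. Among the 20 protein-coding neighbours of VARS in the table, 18 never reached 10 counts, and among the 19 of VARS2, 15 never did. Of all 27978 symbols, 15789 passed the filter on low counts. The share of all protein-coding genes that never reached 10 counts was not computed. VARS2 also shares 1858 exon bases with GTF2H4 on the same strand. The level of VARS is therefore not known from this table, the values of VARS2 are uncertain, and the cause of the low counts was not tested.

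**Figure D1:**
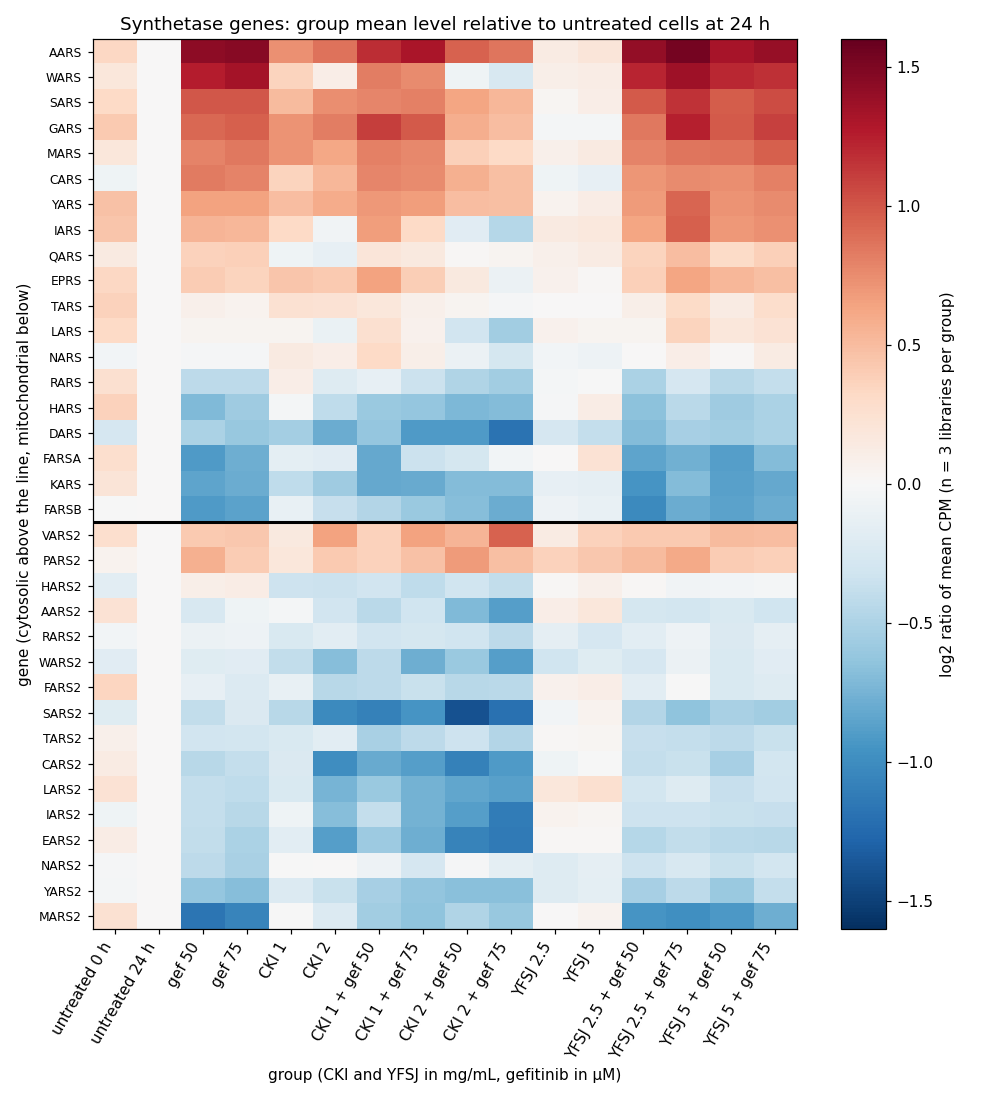
Mean level of each of the 35 tested synthetase genes in each of the 16 groups (columns), as the log2 ratio of mean CPM to untreated cells at 24 h (colour; 3 libraries per group), with cytosolic genes above the black line and mitochondrial genes below it. AARS is the reddest row with gefitinib (log2 fold change 1.46 at 75 µM), and SARS2 and CARS2 are among the bluest with CKI 2 mg/mL (-1.01 and -0.99).

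Gefitinib split the cytosolic enzymes into a large rising and a smaller falling group, and most changes of mitochondrial enzymes were decreases. At 75 µM, 10 of 19 cytosolic genes rose and 6 fell, and 2 of 16 mitochondrial genes rose and 8 fell (edgeR quasi-likelihood test, Benjamini-Hochberg adjusted p under 0.05 over all genes tested). Of all genes, 54.7% were called in this comparison, 27.6% higher and 27.1% lower, so a called synthetase gene is not by itself unusual. The median log2 fold change was 0.35 for cytosolic and -0.26 for mitochondrial genes, against 0.02 for all genes. At 50 µM, the counts were 10 and 6 of 19 cytosolic genes and 2 and 10 of 16 mitochondrial genes, with 54.4% of all genes called (27.6% higher, 26.8% lower). The largest log2 fold changes at 50 µM were 1.43 for AARS, 1.25 for WARS, 1.00 for SARS and 0.92 for GARS in the cytosolic set, and -1.17 for MARS2, -0.62 for YARS2, 0.56 for PARS2 and -0.45 for CARS2 in the mitochondrial set. The exceptions in the mitochondrial set, VARS2 and PARS2, were the 2 genes of lowest level. Both lost the call at 75 µM when single libraries were left out.

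Among the cytosolic enzymes, AARS showed the largest rise. AARS stood at 347, 323 and 359 CPM in untreated cells and at 947, 914 and 967 CPM with gefitinib 75 µM (log2 fold change 1.46 ± 0.10 SE, adjusted p = 3.22e-17). WARS stood at 258, 236 and 248 CPM and rose to 621, 621 and 630 CPM (log2 fold change 1.33 ± 0.08, adjusted p = 9.07e-19). SARS stood at 156, 143 and 153 CPM and rose to 300, 303 and 299 CPM (log2 fold change 1.00 ± 0.08, adjusted p = 4.34e-14). All treated libraries of these genes lay above all untreated ones, as they did in 31.8% of all genes. GARS rose by 0.96 ± 0.11, MARS (methionine) by 0.84 ± 0.07, CARS (cysteine) by 0.79 ± 0.07 and YARS (tyrosine) by 0.64 ± 0.10 on the log2 scale. IARS (isoleucine), QARS (glutamine) and EPRS, which charges both glutamate and proline, rose by 0.53, 0.38 and 0.35. On the opposite strand, MARS shares 519 exon bases with ARHGAP9 and 355 with DDIT3, WARS 385 with AL157871.4 and 287 with WDR25, and YARS 396 with S100PBP. The library kit as described does not mark strand, so reads in these overlaps cannot be assigned, and DDIT3 itself rose by 2.34 ± 0.21.

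The 6 cytosolic genes that fell included both subunits of the phenylalanine enzyme. FARSB went from 98.8, 92.8 and 97.5 CPM to 51.9, 57.1 and 50.1 CPM, a log2 fold change of -0.86 ± 0.09. FARSA went from 410, 442 and 527 CPM to 265, 245 and 292 CPM, a log2 fold change of -0.78 ± 0.12. KARS went from 416, 423 and 437 CPM to 253, 253 and 232 CPM, a log2 fold change of -0.79 ± 0.09. All treated libraries of these genes lay below all untreated ones, as they did in 30.4% of all genes. The enzymes that serve both compartments thus moved in opposite directions, GARS higher and KARS lower. DARS (aspartate) fell by 0.60, HARS (histidine) by 0.57 and RARS (arginine) by 0.42 on the log2 scale.

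LARS (leucine), NARS (asparagine) and TARS (threonine) were not called at 75 µM. The 95% intervals of their log2 fold changes ran from -0.17 to 0.26, from -0.19 to 0.15 and from -0.12 to 0.22. Genes moved both ways inside and outside the multisynthetase complex: of its 8 enzymes 4 rose and 3 fell, and of the 11 tested enzymes outside it 6 rose and 3 fell.

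In the mitochondrial set, MARS2 (methionine) had the largest fall. It stood at 21.1, 16.6 and 19.2 CPM in untreated cells and at 7.98, 8.54 and 10.8 CPM with gefitinib 75 µM (log2 fold change -1.06 ± 0.12, adjusted p = 7.89e-10). MARS2 and its cytosolic counterpart MARS thus changed in opposite directions. YARS2 (tyrosine) fell by 0.68 ± 0.08, NARS2 (asparagine) by 0.52 ± 0.10 and EARS2 (glutamate) by 0.51 ± 0.08 on the log2 scale. IARS2, LARS2 (leucine), CARS2 and TARS2 fell by 0.44, 0.41, 0.39 and 0.29. The remaining 6 mitochondrial genes were not called.

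HARS and HARS2, the cytosolic and mitochondrial histidine enzymes, lie head to head on chromosome 5 with 437 shared exon bases on opposite strands. HARS went from 153, 158 and 163 CPM to 109, 106 and 104 CPM with gefitinib 75 µM. All treated libraries lay below all untreated ones, as they did in 30.4% of all genes. HARS2 stood at 39.0, 36.02 and 36.5 CPM and at 42.1, 40.6 and 38.1 CPM, a log2 fold change of 0.12 ± 0.08 that was not called (adjusted p = 0.238). HARS thus fell while HARS2 was not called, and the difference between the 2 genes was not tested.

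No synthetase gene was called between gefitinib 75 and 50 µM: 0 of 35 passed edgeR's quasi-likelihood test, 0 had an unadjusted p under 0.05, and DESeq2 also called 0. Across all genes 0.0317% were called. The log2 differences of the 35 genes lay between -0.16 and 0.18.

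**Figure D2:**
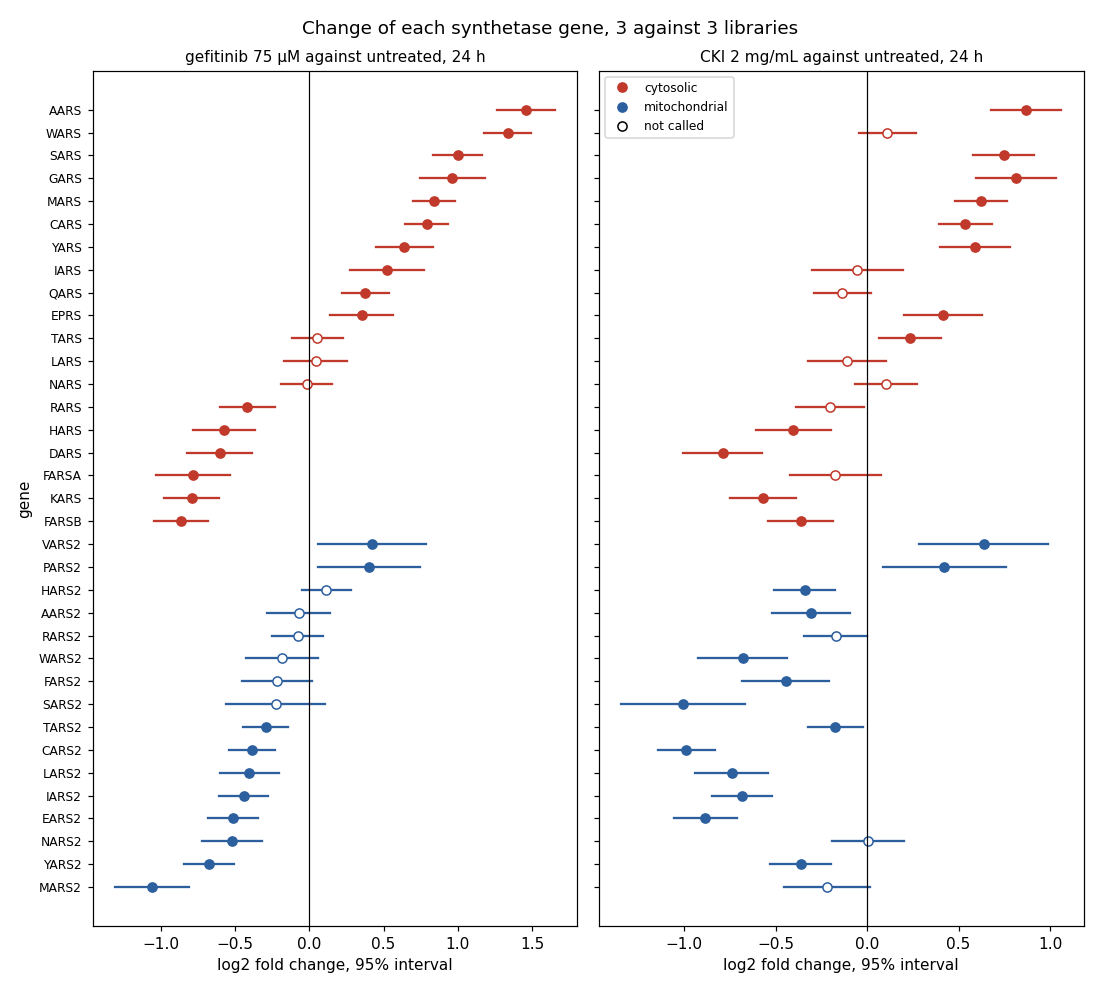
Log2 fold change (points) and 95% interval (lines) of each tested synthetase gene for gefitinib 75 µM (left) and CKI 2 mg/mL (right) against untreated cells at 24 h, 3 libraries per group, with open points for genes not called. With gefitinib AARS (1.46) and MARS2 (-1.06) mark the ends, and with CKI the low end is held by SARS2 (-1.01) and CARS2 (-0.99).

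Promoter sequences were searched for 1 motif. The motif TGATGNAA is a form of the element bound by ATF4 with C/EBP proteins, and was searched on both strands from 250 bases before to 50 after the RefSeq start site (GRCh38.p14) of the 30 synthetase genes with an entry. It was found in 7 of 16 cytosolic and 1 of 14 mitochondrial genes, against 2.87% of the 12092 tested genes with an entry. The narrower TGATGCAA, every match of which is also a match of the first, was found in 6 of 16 cytosolic and 0 of 14 mitochondrial genes, against 0.744% of tested genes. The matches with 10 bases on each side are shown because they occur in genes that rose, in genes that were not called and in 1 that fell. They are written on the gene's strand with the match in capitals.
AARS, chr16:70289676-70289703, minus strand: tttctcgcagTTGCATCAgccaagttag
CARS, chr11:3057408-3057435, minus strand: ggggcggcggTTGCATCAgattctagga
GARS, chr7:30594835-30594862, plus strand: tacgcggcgaTTTCATCAtgctccgagc
IARS, chr9:92293693-92293720, minus strand: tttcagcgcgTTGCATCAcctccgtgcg
MARS, chr12:57488054-57488081, plus strand: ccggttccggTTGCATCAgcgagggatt
NARS, chr18:57621805-57621832, minus strand: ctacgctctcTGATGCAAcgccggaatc
TARS, chr5:33440957-33440984, plus strand: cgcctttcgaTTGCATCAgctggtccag
YARS2, chr12:32756077-32756104, minus strand: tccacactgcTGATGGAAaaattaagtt
Of the 9 rising cytosolic genes with an entry, 5 held TGATGNAA, and of the 5 falling ones with an entry, 0 did. NARS and TARS held the motif and were not called with gefitinib, while YARS2 held it and fell. A match in these windows is a description and was not measured as a bound site, and WARS, SARS, QARS and EPRS, which rose, had no match in them.

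CKI alone also raised some cytosolic enzymes, and lowered more mitochondrial ones at the higher dose. At 1 mg/mL, 9 of 19 cytosolic genes rose and 2 fell and 7 of 16 mitochondrial genes fell, with 27.9% of all genes called (13.2% higher, 14.7% lower). At 2 mg/mL, 8 cytosolic genes rose and 4 fell, and 2 mitochondrial genes rose and 11 fell, with 51.2% of all genes called (24.1% higher, 27.1% lower). The median log2 fold change at 2 mg/mL was 0.10 for cytosolic and -0.35 for mitochondrial genes, against -0.01 for all genes. Scaling by library size alone moved the median of all genes to 0.18 at 2 mg/mL. Under it, 10 cytosolic genes were higher and 3 lower and 2 mitochondrial genes were higher and 6 lower at 2 mg/mL, and at 1 mg/mL 10 and 2 cytosolic and 0 and 1 mitochondrial.

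At CKI 1 mg/mL the largest cytosolic changes were rises of AARS by 0.74, GARS by 0.72 and MARS by 0.72 and a fall of DARS by 0.54 on the log2 scale. The largest mitochondrial ones were falls of SARS2 by 0.44, WARS2 by 0.39, HARS2 by 0.34 and TARS2 by 0.24, of which HARS2 alone kept the call in every fit run. At CKI 2 mg/mL, AARS stood at 622, 678 and 579 CPM (log2 fold change 0.87 ± 0.10, adjusted p = 2.69e-10) from untreated cells. GARS rose by 0.81 ± 0.11 and SARS by 0.75 ± 0.08, while DARS fell by 0.79 ± 0.11 on the log2 scale. WARS stood at 324, 315 and 313 CPM with CKI 1 mg/mL, a called rise of 0.36, and at 255, 290 and 257 CPM with 2 mg/mL, a log2 fold change of 0.11 ± 0.08 that was not called. The other called cytosolic genes at 2 mg/mL were MARS, YARS, CARS, EPRS and TARS, higher by 0.62, 0.59, 0.54, 0.42 and 0.23, and KARS, HARS and FARSB, lower by 0.57, 0.40 and 0.36.

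The mitochondrial serine enzyme SARS2 stood at 34.4, 41.5 and 45.1 CPM in untreated cells and at 17.5, 26.3 and 16.1 CPM with CKI 2 mg/mL (log2 fold change -1.01 ± 0.17, adjusted p = 3.58e-06). All treated libraries were below all untreated ones, as they were in 29.7% of all genes. SARS2 shares 1492 exon bases with AC011455.2, a protein-coding gene annotated on the same strand, and 349 with MRPS12 on the opposite strand, so its values are uncertain. CARS2 went from 80.1, 90.7 and 88.4 CPM to 43.8, 46.2 and 40.5 CPM (log2 fold change -0.99 ± 0.08, adjusted p = 1.54e-14). EARS2 fell by 0.88 ± 0.08 and LARS2 by 0.74 ± 0.10, and IARS2 and WARS2 (tryptophan) by 0.68 each. On the opposite strand, CARS2 shares 326 exon bases with ING1 and EARS2 370 with UBFD1, and reads in these overlaps cannot be assigned. The serine pair thus moved in opposite directions with CKI, SARS higher and SARS2 lower. MARS2 and NARS2, both lower with gefitinib, were not called with CKI 2 mg/mL, at -0.22 ± 0.12 and 0.01 ± 0.10. TARS2, at -0.17, was called here but was 0.03 under library-size scaling.

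Between CKI 2 and 1 mg/mL, 2 cytosolic genes were higher and 5 lower and 1 mitochondrial gene was higher and 7 were lower, against 32.7% of all genes called, 15.1% higher and 17.6% lower. CARS2 was lower by 0.75, EARS2 by 0.71, IARS2 by 0.61 and SARS2 by 0.56 on the log2 scale. Of the cytosolic genes, HARS was lower by 0.38, IARS by 0.37, RARS by 0.31 and WARS by 0.25. Under library-size scaling, which moved the median of all genes from -0.01 to 0.11, 3 cytosolic genes were higher and 1 lower, and 2 mitochondrial genes were higher and 5 lower. Leaving out single libraries gave 8 to 13 called genes in place of 15, the fewest without library 2 of CKI 2 mg/mL.

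**Figure D3:**
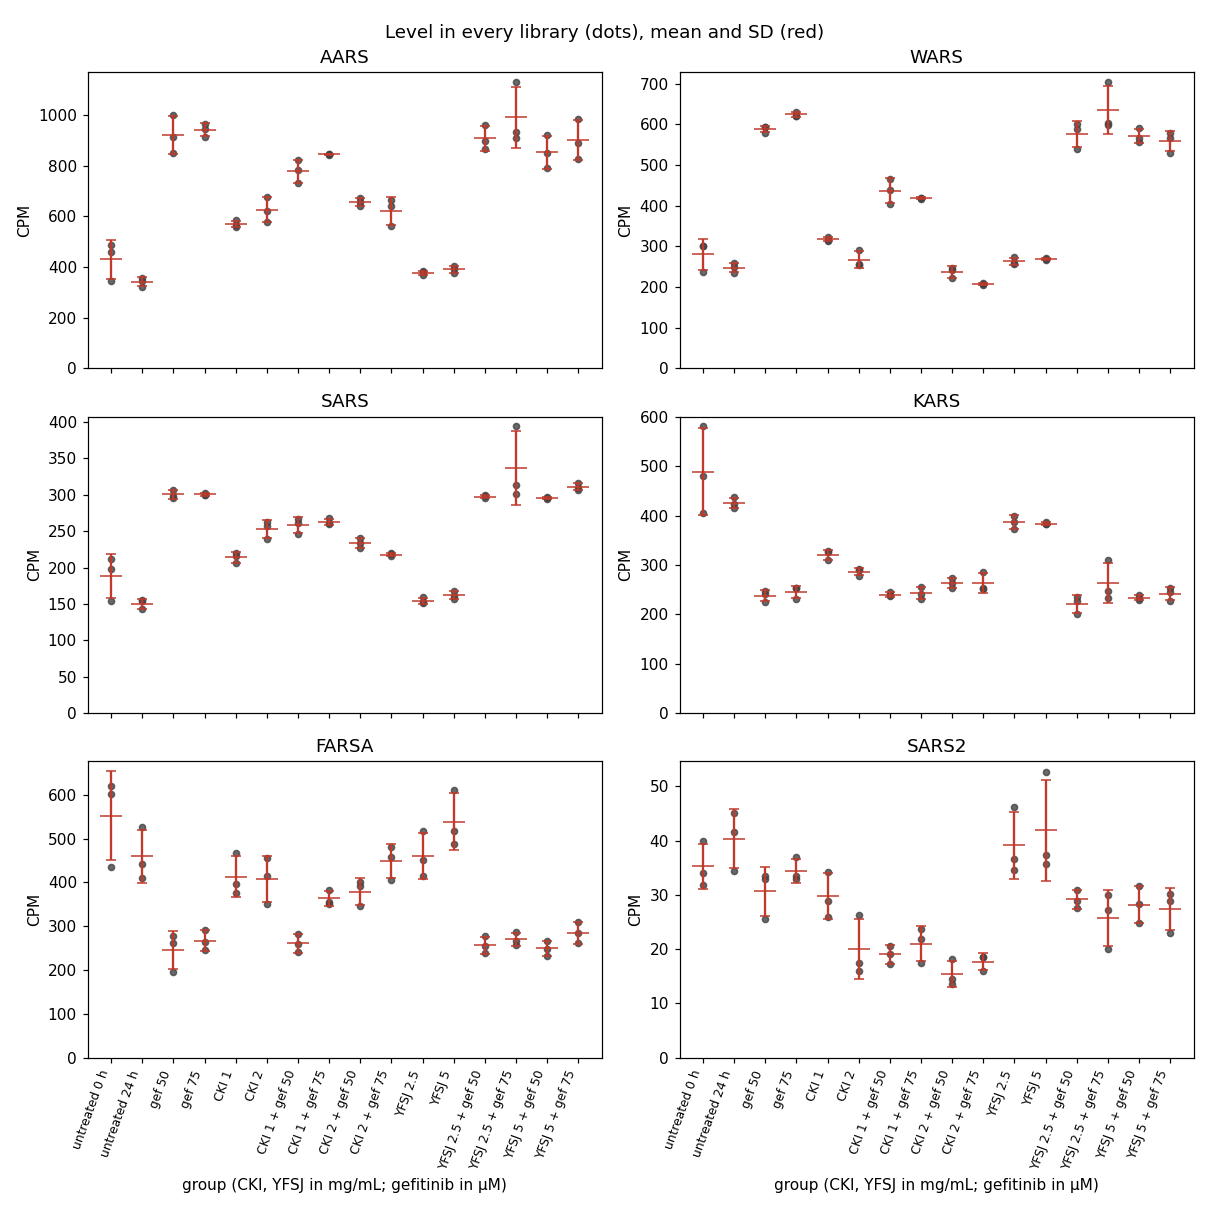
Level (CPM, axis from 0) of AARS, WARS, SARS, KARS, FARSA and SARS2 in every library (dots) of the 16 groups (horizontal axis), with mean and SD in red. WARS is at 621 to 630 CPM with gefitinib 75 µM and at 206 to 210 CPM with CKI 2 mg/mL added.

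Adding CKI to gefitinib changed synthetase genes of both compartments, on average over the doses mostly towards lower levels. Averaged over the 4 dose pairs, 2 of 19 cytosolic genes were higher and 10 lower than with gefitinib alone, and 2 of 16 mitochondrial genes were higher and 11 lower. Of all genes 63.1% were called, 30.9% higher and 32.2% lower. The median log2 difference was -0.15 for cytosolic and -0.30 for mitochondrial genes, against 0.00 for all genes. The cytosolic genes differed by CKI dose. They summed to 5117 CPM with gefitinib 50 µM, 5043 CPM with CKI 1 mg/mL added and 4096 CPM with 2 mg/mL added. With gefitinib 75 µM these sums were 5210, 4904 and 3918 CPM. In the lowest dose pair GARS was above gefitinib 50 µM alone (log2 ratio to untreated 1.10 against 0.92) and WARS below it (0.82 against 1.25). Single dose pairs were not tested. Without the libraries with ALB counts, which leaves 3 of the dose pairs, 2 cytosolic genes were higher and 6 lower with a median of -0.05, and 2 mitochondrial genes were higher and 10 lower with a median of -0.28. All of these genes were also called with those libraries, and GARS, LARS, MARS, CARS and TARS2 lost the call. With library-size scaling, 4 cytosolic genes were higher and 7 lower, and 3 mitochondrial genes were higher and 10 lower.

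WARS carried the largest of these differences. It stood at 621, 621 and 630 CPM with gefitinib 75 µM and at 420, 416 and 420 CPM with CKI 1 mg/mL added. With CKI 2 mg/mL added it stood at 206, 210 and 207 CPM, below the 258, 236 and 248 CPM of untreated cells. All 3 libraries of that last group are among those with ALB counts. WARS stood at 248 CPM in library 2 of CKI 2 mg/mL with gefitinib 50 µM, the only library of that CKI dose with gefitinib below the ALB mark. Over the 4 dose pairs it was lower by 0.98 ± 0.05 on the log2 scale (adjusted p = 4.28e-22), and without the libraries with ALB counts the log2 difference was -0.75. IARS was lower by 0.45, AARS by 0.37 and DARS by 0.35. Without the libraries with ALB counts the log2 difference of IARS was -0.28. FARSA was higher by 0.48 ± 0.08: it stood at 265, 245 and 292 CPM with gefitinib 75 µM and at 405, 458 and 481 CPM with CKI 2 mg/mL added. At the lowest doses FARSA overlapped, at 263, 278 and 196 CPM with gefitinib 50 µM and 259, 282 and 241 CPM with CKI 1 mg/mL added. FARSB, its partner, was higher by 0.25. SARS2 was lower by 0.84 ± 0.10, CARS2 by 0.50 and WARS2 by 0.48, and HARS2 was lower by 0.46. MARS2 was higher by 0.54 ± 0.08 and NARS2 by 0.34.

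Whether the agents combine as the sum of their log2 effects was read from the interaction, the change with both minus the changes with each, averaged over the 4 dose pairs. Of the 35 genes, 17 were called, 10 of 19 cytosolic genes below and 4 above the sum, and 3 of 16 mitochondrial genes above. Of all genes 39.5% were called, 20% above and 19.5% below. WARS was at -1.21 ± 0.08 (adjusted p = 4.07e-16), AARS at -1.18 ± 0.10, SARS at -0.94 ± 0.09 and MARS at -0.92 ± 0.08. GARS was at -0.91, CARS at -0.61, YARS at -0.60, IARS at -0.58, EPRS at -0.53 and TARS at -0.24. Above the sum were FARSA (0.64), KARS (0.55), FARSB (0.49), DARS (0.32), MARS2 (0.66), NARS2 (0.34) and YARS2 (0.31). The interaction subtracts the single-agent changes described above and is not independent of them. Without the libraries with ALB counts WARS was at -1.02 and AARS at -1.07. That fit lacks the pair of CKI 2 mg/mL with gefitinib 75 µM. It also lacks 2 of the 3 libraries of CKI 1 mg/mL with gefitinib 75 µM and of CKI 2 mg/mL with gefitinib 50 µM. The omission of libraries and the change in the doses averaged cannot be told apart.

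**Figure D4:**
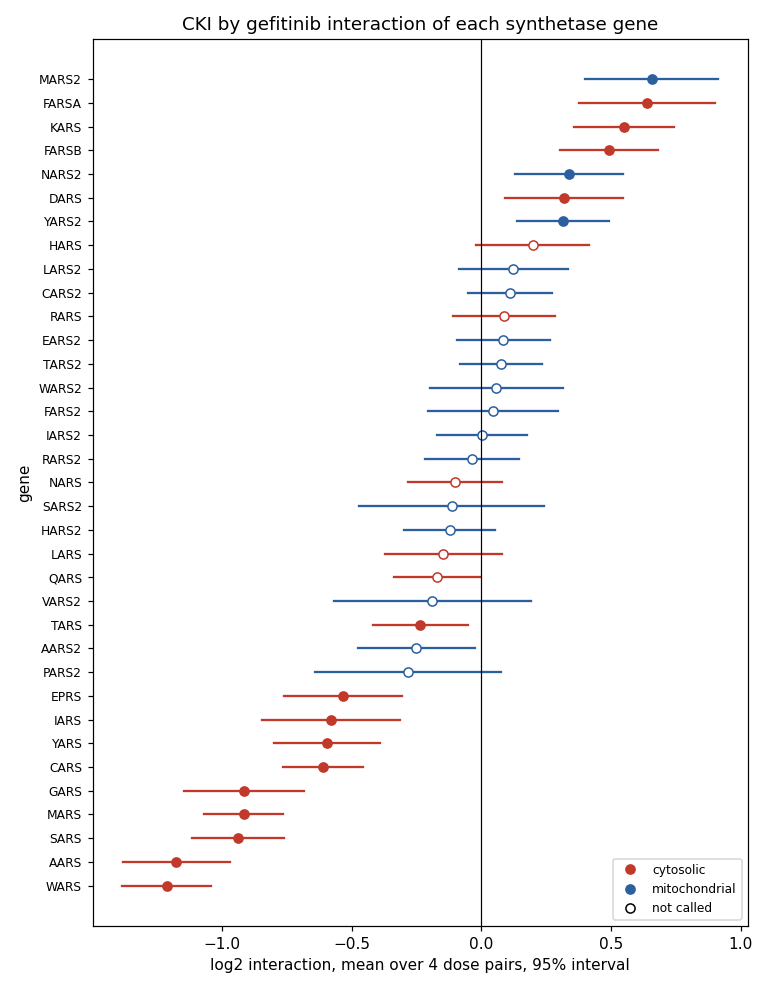
CKI by gefitinib interaction of each tested synthetase gene on the log2 scale (points) with 95% intervals (lines), ordered by size, with open points for genes not called. WARS and AARS, at -1.21 and -1.18, are lowest, and MARS2 and FARSA, at 0.66 and 0.64, are highest.

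Gefitinib added to CKI, against CKI alone, raised 3 cytosolic genes and lowered 9, and lowered 10 mitochondrial genes, with 50.1% of all genes called (24.2% higher, 25.8% lower). AARS was higher by 0.27 ± 0.06 and CARS and QARS by 0.20 each. HARS was lower by 0.44, FARSB by 0.39, RARS by 0.33, KARS by 0.27 and DARS by 0.24. MARS2 was lower by 0.46, SARS2 by 0.43, IARS2 and AARS2 (alanine) by 0.41 each and EARS2 by 0.37. WARS was not called, at 0.08 ± 0.05, against 1.25 and 1.33 for gefitinib 50 and 75 µM alone. This mean joins opposite directions at the CKI doses. On CKI 1 mg/mL WARS went from 324, 315 and 313 CPM to 420, 416 and 420 CPM with gefitinib 75 µM. On CKI 2 mg/mL it went from 255, 290 and 257 CPM to 206, 210 and 207 CPM. With library-size scaling, 5 cytosolic genes were higher and 6 lower, and 2 mitochondrial genes were higher and 9 lower. Without the libraries with ALB counts, 4 cytosolic genes were higher and 6 lower, and 0 mitochondrial genes were higher and 9 lower. That fit lacks the pair of CKI 2 mg/mL with gefitinib 75 µM. The median log2 difference went from -0.10 to -0.04 for cytosolic and from -0.25 to -0.28 for mitochondrial genes.

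Few synthetase genes changed with YFSJ alone. At 2.5 mg/mL, 0 of 35 genes were called by edgeR's quasi-likelihood test, 5 had an unadjusted p under 0.05, DESeq2 called 0, and 2.93% of all genes were called (2.01% higher, 0.918% lower). Log2 fold changes lay between -0.31 and 0.37. At 5 mg/mL, DARS fell by 0.39 ± 0.11 (adjusted p = 0.0212) and RARS2 (arginine) by 0.27 ± 0.08 (adjusted p = 0.0455), with 6.48% of all genes called (4.28% higher, 2.2% lower). DARS stood at 108, 110 and 97.9 CPM in untreated cells and at 75.4, 82.6 and 83.8 CPM with YFSJ 5 mg/mL. All treated libraries lay below all untreated ones, as they did in 13.7% of all genes. RARS2 stood at 35.1, 32.3 and 33.9 CPM and at 27.0, 28.4 and 28.7 CPM. DARS kept the call in 3 of the 6 fits that left out a library, and RARS2 in 0 of 6. RARS2 also lost it under library-size scaling, with no filter on low counts, with the replicate block and with only the libraries of the groups compared.

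With YFSJ added to gefitinib 1 gene was called, YARS2, higher by 0.16 ± 0.05 (adjusted p = 0.0455), with 7.98% of all genes called (4.28% higher, 3.71% lower). YARS2 was also the only gene called in the YFSJ by gefitinib interaction, at 0.34 ± 0.09 (adjusted p = 0.0315), where 1.7% of all genes were called (0.646% above, 1.05% below). Its levels were 38.2, 35.0 and 36.1 CPM in untreated cells, 23.9, 23.9 and 20.6 CPM with gefitinib 75 µM and 28.4, 27.1 and 28.2 CPM with YFSJ 5 mg/mL added. YARS2 kept its call for added YFSJ in 6 of the 18 fits that left out a library and its interaction call in 19 of 27. Leaving out single libraries gave 0 called genes for added YFSJ in 11 of the 18 fits and at most 4, without library 3 of gefitinib 50 µM.

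The summed levels of the cytosolic and mitochondrial gene sets were compared in each group. The cytosolic set includes GARS and KARS, which serve both compartments, and leaves out VARS. The sums are not scaled to transcript length, so their ratio is not a measure of enzyme supply to each compartment. The 19 cytosolic genes summed to 3909 ± 116 CPM in untreated cells at 24 h and the 16 mitochondrial genes to 819 ± 26.8 CPM, a ratio of 4.78 ± 0.0591 (SD, n = 3). With gefitinib 75 µM the sums were 5210 ± 35.3 and 645 ± 7.15 CPM and the ratio 8.07 ± 0.0528. With CKI 2 mg/mL the sums were 4463 ± 68.0 and 572 ± 0.386 CPM and the ratio 7.80 ± 0.122. The ratio was highest, 9.10 ± 0.391, with CKI 1 mg/mL plus gefitinib 75 µM. With CKI 2 mg/mL plus gefitinib 75 µM the cytosolic sum was back at 3918 ± 44.8 CPM while the mitochondrial sum was the lowest of all groups, 487 ± 4.21 CPM. With YFSJ 2.5 and 5 mg/mL the ratio was 4.80 ± 0.130 and 4.86 ± 0.0393.

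Untreated cells at 24 h against 0 h had 11 of 19 cytosolic and 1 of 16 mitochondrial genes lower, with 25.2% of all genes called (10.8% higher, 14.4% lower). YARS was lower by 0.47, IARS by 0.45, GARS by 0.41 and TARS by 0.37, and FARS2 (phenylalanine) by 0.33. This rests on libraries 1 and 2 at 0 h, which stood apart. With only library 3 at 0 h the median log2 difference went from -0.26 to 0.01 for cytosolic and from -0.06 to 0.06 for mitochondrial genes. In that fit 0 genes were called, with 1 library in that group and its spread assumed to be that of the other groups. AARS, for example, was at 486 and 461 CPM in those libraries and at 344 CPM in library 3, against 323 to 359 CPM at 24 h. Leaving out single libraries gave from 3 called genes (without library 2 at 0 h) to 22 (without library 3 at 0 h).

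Other genes of the pathway were read as fixed lists, beside 27.6% of all genes higher and 27.1% lower with gefitinib 75 µM. Among 13 tested partners of tRNA charging, 1 rose and 6 fell with gefitinib 75 µM. XPOT, the tRNA exporter, rose by 0.52, and the complex scaffolds EEF1E1 and AIMP1 fell by 1.32 and 0.46. Of 9 mitochondrial translation factors 5 fell, GFM1, an elongation factor, by 0.78. Of 12 genes of amino acid synthesis 10 rose and 2 fell, with PHGDH, the first enzyme of serine synthesis, at 2.12, ASNS, asparagine synthetase, at 1.66 and CTH at 1.55. Of 6 genes of the ATF4 axis 5 rose, ATF4 by 1.24 ± 0.17. With CKI 2 mg/mL, where 24.1% of all genes were higher and 27.1% lower, 4 of the 13 charging partners were higher and 4 lower, a share near that of all genes. Of the 9 translation factors 4 were lower, and 10 of the 12 amino acid synthesis genes and 5 of the 6 ATF4 axis genes were higher, ASNS by 3.21. In the CKI by gefitinib interaction, 9 of the 12 amino acid synthesis genes and 4 of the 6 ATF4 axis genes were below the sum, against 19.5% of all genes, with PHGDH at -1.87 and DDIT3 at -1.49.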

How the data were processed

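The authors deposited a table of raw counts per gene symbol, whole numbers that are not normalized. Per the submitters' processing notes, reads were trimmed with Trim Galore 0.4.2, aligned with STAR 2.5.3a to hg19, and edgeR was used; the counting tool, annotation and strand setting are not given in the sources used here. Counts were analysed here in R 4.3.3 with edgeR 4.0.16 (filterByExpr at min.count 10 and min.total.count 15, TMM factors, robust quasi-likelihood fit of all 48 libraries with 1 mean per group, two-sided tests, 32 residual degrees of freedom, Benjamini-Hochberg adjustment over 15789 genes, threshold 0.05). SE is the absolute log2 fold change over the square root of F. CPM values include TMM factors. P-values set a difference between groups against the spread within groups, estimated from all 48 libraries and not only those compared. They do not cover spread beyond these libraries.

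Members and lists were chosen with earlier results of these data known. For each comparison the 4 cytosolic and 4 mitochondrial called genes of largest change were to be named, plus AARS, WARS, SARS, HARS, KARS, LARS2, HARS2, SARS2, WARS2 and genes that go against their class, and up to 3 genes per pathway list; other called genes are given to account for the family. Promoter positions are of GRCh38.p14 (RefSeq) and gene overlaps and lengths of GRCh38 (GENCODE), not of hg19. Alternatives were other scaling, no filter, DESeq2 1.42.0, a replicate block, a batch term for libraries with ALB counts, fits of only the groups compared, a threshold of 0.01 and leaving out libraries; omission of the libraries with ALB counts was added after the data were seen. On simulated counts for gefitinib 75 µM against untreated (15382 genes), 66 of 100 genes changed 1.5-fold and 85 of 100 changed 2-fold were recovered, with 6 false among 157 calls. No other gene was changed there, whereas 54.7% of all genes were called in the data. These rates therefore do not carry over to the calls above.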

Additional observations from a re-analysis of the deposited data

Results flagged for a closer look

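The effect of gefitinib on 17 synthetase genes differed with and without CKI by the test of the difference itself (edgeR's quasi-likelihood interaction over 4 dose pairs, adjusted p under 0.05), and that of 1 gene differed with and without YFSJ. For the cytosolic genes the log2 interaction with CKI was -1.21 for WARS, -1.18 for AARS, -0.94 for SARS, -0.92 for MARS, -0.91 for GARS, -0.61 for CARS, -0.60 for YARS, -0.58 for IARS, -0.53 for EPRS and -0.24 for TARS, and 0.64 for FARSA, 0.55 for KARS, 0.49 for FARSB and 0.32 for DARS. For the mitochondrial genes it was 0.66 for MARS2, 0.34 for NARS2 and 0.31 for YARS2. DARS, TARS and YARS2 lost the call without the libraries with ALB counts, with adjusted p of 0.0636, 0.126 and 0.0597. The interaction of YFSJ with gefitinib for YARS2, 0.34, also lost it there (adjusted p = 0.165).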

How the results depend on the processing

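Of 192 calls of a synthetase gene in a comparison, 131 held under every alternative run, 61 were lost under at least 1 and 4 changed sign. At an adjusted p under 0.01, the calls for 24 h against 0 h went from 12 to 7, for CKI 1 mg/mL from 18 to 11, for CKI 2 against 1 mg/mL from 15 to 7, for YFSJ 5 mg/mL from 2 to 0, for YFSJ added to gefitinib from 1 to 0 and for the YFSJ by gefitinib interaction from 1 to 0. With only the libraries of the groups compared, 0 genes were called for 24 h against 0 h, 1 for YFSJ 5 mg/mL, 0 for YFSJ added and 0 for the YFSJ interaction. With only library 3 at 0 h, 0 were called for 24 h against 0 h, and HARS, FARS2 and RARS turned to 0.0244, 0.0276 and 0.0117. With no filter, YFSJ 5 mg/mL gave 1, YFSJ added 0 and the YFSJ interaction 0 calls, and the last was also 0 without the libraries with ALB counts. Without those libraries the YFSJ interaction held only the dose pairs of YFSJ 5 mg/mL. Library-size scaling gave 1 call for YFSJ 5 mg/mL and turned TARS2 with CKI 2 mg/mL to 0.0277. For gefitinib 50 µM it moved the median of all genes from 0.03 to 0.14, with 10 cytosolic genes higher and 6 lower and 2 mitochondrial genes higher and 8 lower. The causes were not tested.

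Leaving out each library gave 3 to 22 calls for 24 h against 0 h, 25 to 28 for gefitinib 50 µM, 24 to 25 for gefitinib 75 µM, 12 to 18 for CKI 1 mg/mL, 22 to 24 for CKI 2 mg/mL, 0 to 2 for YFSJ 5 mg/mL, 8 to 13 for CKI 2 against 1 mg/mL, 23 to 26 for CKI added, 0 to 4 for YFSJ added, 19 to 23 for gefitinib added, 16 to 18 for the CKI interaction and 0 to 2 for the YFSJ interaction. Replicate numbers did not pair the libraries: over 360 same-numbered pairs the median correlation of deviations was -0.02, 99 exceeded 0.1, and 9 of 48 libraries correlated best with their own number. With the replicate block the calls were 11 for 24 h against 0 h, 27 and 25 for gefitinib 50 and 75 µM, 18 and 24 for CKI 1 and 2 mg/mL, 1 for YFSJ 5 mg/mL, 0 for YFSJ added and 17 for the CKI interaction, and the block moved no other count by over 1.5 times. Counts limit the genes of lowest level, PARS2 (69 to 217 counts) and VARS2 (83 to 341).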
